A study of Mus musculus with 7 samples.

Results

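The mouse olfactory receptor genes of chromosomes 13 and 17 were described in 7 RNA sequencing libraries of whole olfactory epithelium, the odour-sensing tissue of the nasal cavity, from mice at postnatal day 7. The rule that chose them uses name and position and no measured value, though it was set with earlier results of these data known: every gene of the deposited count table called Olfr plus a number on either chromosome. That gave 62 genes, 13 on chromosome 13 and 49 on chromosome 17, of 1110 receptor genes with such names and 50600 genes in all. Of the libraries, 1 came from an Amigo1+/+ mouse (WT), 3 from Amigo1-/- mice (KO) and 3 from Amigo1neo/neo mice (neo). In neo mice a neomycin resistance cassette stands where Amigo1, a cell adhesion gene, would encode its protein. The labels give neither the strain, the sex nor the litter, nor whether a library held 1 animal.

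Odorant receptors are G protein-coupled receptors that sit on the cilia of olfactory sensory neurons. Each mature neuron expresses a single receptor gene from a single allele, so the RNA of a receptor gene in whole tissue follows both the number of neurons that chose it and the RNA each of them holds. Fewer such neurons and less RNA per neuron cannot be told apart in these bulk libraries. The genes lie in clusters along the chromosomes, and in mouse and human 1 such cluster adjoins the major histocompatibility complex (MHC), the region of antigen-presentation genes.

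Joining genes less than 1 Mb apart put the 62 receptor genes in 4 places, and distances of 0.5 and 2 Mb gave the same number. Coordinates are on GRCm38. The chromosome 13 cluster runs over 637.5 kb, from 21069334 to 21706833, and holds 12 genes from Olfr1370 to Olfr1359, 3 on the plus strand and 9 on the minus strand, around Trim27 and Gpx6. Olfr466 stands alone on chromosome 13, from 65150240 to 65156152. A group of 3 plus-strand genes, Olfr55, Olfr239 and Olfr63, lies on chromosome 17 from 33168447 to 33275644 among the zinc finger genes Zfp955a, Zfp955b, Zfp81 and Zfp101. The MHC-linked cluster covers 1252.8 kb of chromosome 17, from 37083871 to 38336643, and holds 46 genes from Olfr90 to Olfr136, 23 on each strand. Gabbr1, a subunit gene of the GABA-B receptor, lies just before it, and H2-M3, a non-classical MHC class I gene, lies inside it between Olfr98 and Olfr99.

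RefSeq windows of 250 bases before to 50 bases after the gene start (GRCm38.p6) were matched for 46 of the 62 genes. For only 3 of these windows did the RefSeq start lie within 50 bases of the start of a GENCODE transcript with more than 1 exon, so most do not lie at the first exon of such a transcript. The core of the site of EBF (Olf-1) factors, regulators in olfactory neurons, was searched on both strands as TCCC, any 2 bases and GGGA. It occurred in 4 of 46 windows (8.70%), against 1 of 898 windows of receptor genes elsewhere (0.111%) and 0.904% of all 32851 windows. Where the windows of other genes lie against such transcript starts was not checked, so these shares do not compare sites at promoters. The 4 windows with a match all belong to the MHC-linked cluster, and they are shown because 3 of them carry nearly the same letters. Capitals mark the match, and each sequence is written 5′ to 3′ on the strand of its gene.
Olfr98, minus strand, chr17:37263826-37263855: tctttctgttTCCCTAGGGAgccattttta
Olfr99, minus strand, chr17:37280587-37280616: tctttatgtcTCCCTAGGGAgccattttta
Olfr108, plus strand, chr17:37445362-37445391: tctttatgtcTCCCTAGGGAgacattttta
Olfr96, plus strand, chr17:37225113-37225140: aaactgaataTCCCATGGGAatcctttc
The stretches of Olfr98, Olfr99 and Olfr108 share 27 to 29 of 30 letters, so they do not count as 3 independent matches. Their matches begin 183, 188 and 108 bases before the RefSeq start. By GENCODE vM21 the Olfr99 stretch lies in an intron, those of Olfr98 and Olfr108 lie outside the transcripts of their genes, and that of Olfr96 lies in an exon, 32 bases past the start. The 3 genes with like stretches had unlike levels, with a mean TPM (RNA abundance scaled for gene length and for depth) of 4.80 for Olfr99, 0.429 for Olfr98 and 0.106 for Olfr108. The shorter motifs TAATTA and TATAAA, whose letters can overlap each other but not those of the EBF core, were searched in the same way. TAATTA, the core of homeodomain sites, stood in 8.70% of the 46 windows, in 19.2% of windows of other receptor genes and in 5.29% of all windows. TATAAA stood in 26.1%, 42.0% and 13.6%.

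The libraries held 14879415 to 21343058 gene counts, of which 3789 to 6166 fell in the 62 receptor genes. Amigo1 stood at 34.2 CPM (counts scaled by library size) in WT and at most 0.884 CPM in the 6 other libraries. WT and neo replicate 1 were high in Xist (644 and 1145 CPM), which female cells express, and had at most 0.0460 CPM of the Y-linked gene Ddx3y, while the other 5 libraries had at least 60.7 CPM of it. The 14 markers of mature olfactory neurons were all present, with a summed level of 4715 CPM in WT, 4010 to 4608 in KO and 4719 to 5153 in neo. The 5 bone markers summed to 4287 to 6841 CPM in KO against 1557 to 3259 in neo, and the 5 fibroblast markers to 5372 to 7278 against 2619 to 4303 CPM. The 6 sustentacular cell markers summed to 1649 to 2015 CPM in KO against 2028 to 2285 in neo, and the 7 basal and precursor cell markers to 254.6 to 295.6 against 302.5 to 349.9 CPM. The ranges of KO and neo did not overlap for these 4 lists or for the mature neuron markers. The 5 skeletal muscle markers summed to 854 CPM in neo replicate 1 against at most 14.5 CPM elsewhere. The part of these cell mixtures in the results below was not tested. Sample names carry 1 code and date-like number for WT and KO and another for neo, so whatever they stand for cannot be told apart from the neo allele. All differences below rest on 3 libraries a group, or 1 for WT.

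All but 1 of the 62 genes were detected, most at low levels. Olfr1367, a single-exon gene of the chromosome 13 cluster, had 0 counts in all 7 libraries (at most 0.200 CPM in any library, the value of 3 counts, counting error only). Olfr108, with 14 counts over all libraries, and Olfr761, with 16, were the lowest of the others. The mean TPM over 7 libraries had a median of 2.03 over the 62 genes, and 48 of them reached 1. Over the 1048 receptor genes of other chromosomes the median was 1.51, and 716 reached 1.

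**Figure D1:**
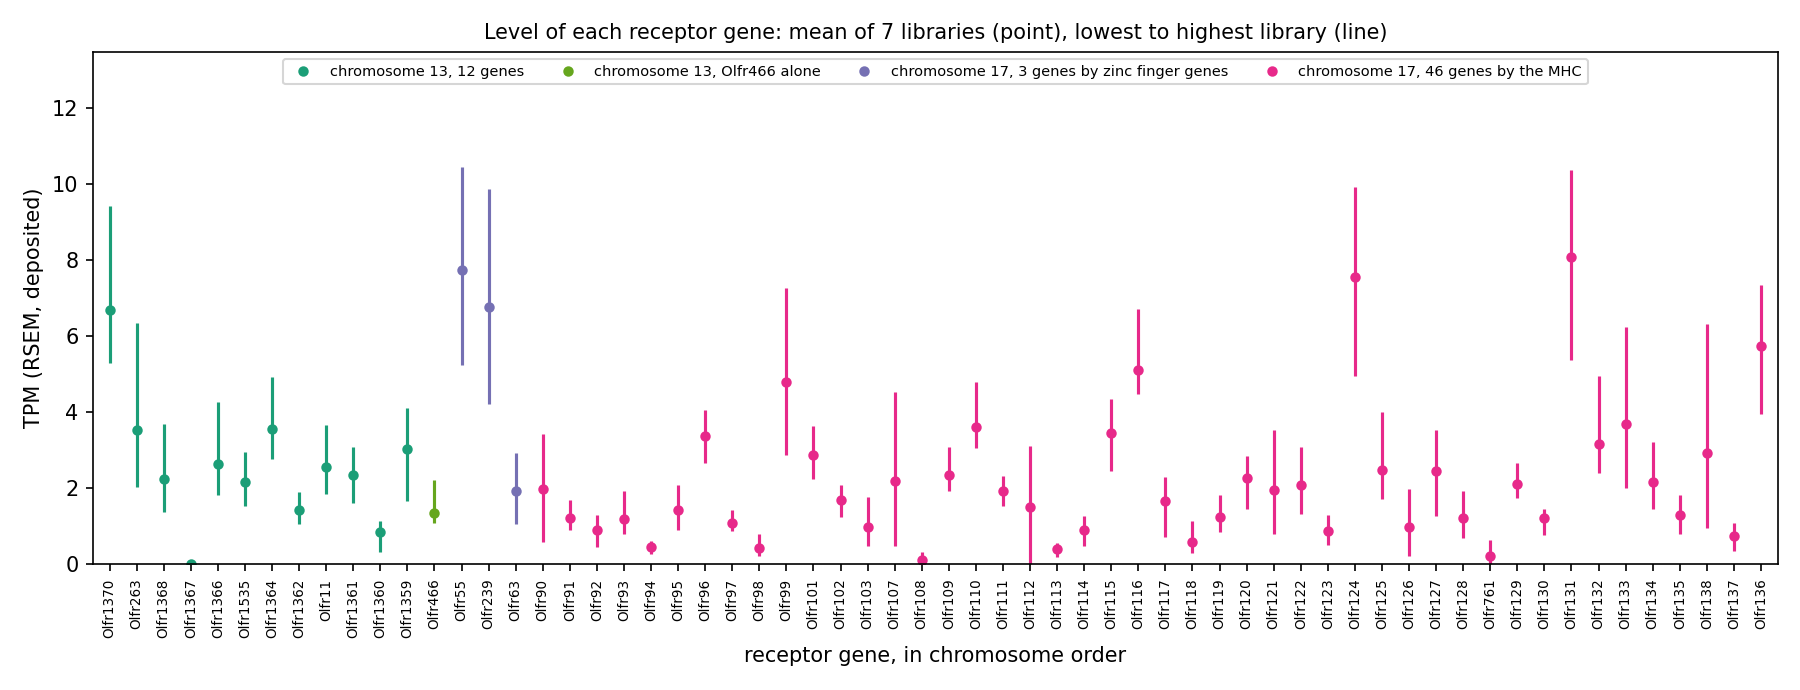
Level of each receptor gene, with genes in chromosome order on the x axis and deposited TPM on the y axis. Points are the mean of 7 libraries and lines run from the lowest to the highest library; Olfr131, Olfr55, Olfr124, Olfr239 and Olfr1370 have means above 6 TPM and Olfr1367 is at 0.

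Each cluster of several genes was led by a few receptors. In the MHC-linked cluster, where the median was 1.80 TPM, Olfr131 (8.09 TPM), Olfr124 (7.55 TPM) and Olfr136 (5.75 TPM) had the highest means. They ranked 15, 17 and 32 among the 1110 receptor genes. Olfr124 alone took 15.2% of the counts of its cluster. In the chromosome 13 cluster, with a median of 2.45 TPM, Olfr1370 led at 6.69 TPM, followed by Olfr1364 (3.56 TPM) and Olfr263 (3.54 TPM), and it held 25.9% of the counts. The group by the zinc finger genes had the highest median, 6.77 TPM, with Olfr55 at 7.74 TPM and Olfr239 at 6.77 TPM. Olfr466 stood at 1.35 TPM. Neighbours in this order often do not differ beyond their spread: from library to library Olfr131 ran from 5.38 to 10.37 TPM and Olfr124 from 4.94 to 9.93 TPM.

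Near-identical genes set a limit on some of these levels. Of the 50-base windows of their GENCODE transcripts, Olfr239 shared 71.5% with other genes and Olfr55 shared 55.3%, mostly with each other. Olfr1360 shared 43.0% with Olfr1359, and Olfr110 shared 31.8% with Olfr111. Windows were matched on both strands. Olfr98 shared 60.7%, and its largest partner (30.8% of its windows) was Gm20429, a gene that overlaps it on the opposite strand. The median over the 62 genes was 7.06%, 12 genes shared more than 20%, and 12 shared none, among them Olfr1370 and Olfr1367. Reads from stretches shared between separate places are either left out of the counts or split by estimation in the TPM values. The levels of such genes are therefore uncertain, and the effect of the overlap on Olfr98 was not tested.

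Summed over all 62 genes, the level was 250.1 CPM in WT. It was 232.2, 238.4 and 215.8 CPM in the KO libraries, in order of replicate, against 262.7, 231.2 and 255.4 in the neo libraries. The KO and neo libraries overlapped, at 228.8 ± 11.7 and 249.8 ± 16.5 CPM (SD, n = 3 each), a ratio of 1.09. As a share of the counts in all receptor genes, the 62 genes took 6.70% ± 0.321 in KO, 6.56% ± 0.295 in neo (SD, n = 3 each) and 6.84% in WT, so that neo was 0.979 times KO by this measure, below 1. Set against the summed level of mature neuron markers it was 0.955 times KO.

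By cluster, the KO and neo libraries overlapped on the CPM scale in all 4 places. The MHC-linked cluster summed to 171.5 CPM in WT, 159.2, 161.1 and 137.2 in KO and 172.3, 150.4 and 160.0 in neo, a ratio of neo to KO of 1.06. The chromosome 13 cluster summed to 58.4 CPM in WT, 54.2, 57.5 and 64.2 in KO and 66.9, 61.7 and 70.3 in neo, a ratio of 1.13. The lowest neo library thus lay below the highest KO library in both. The group of 3 by the zinc finger genes summed to 18.0 CPM in WT, 16.2, 17.8 and 12.1 in KO and 20.5, 16.9 and 22.7 in neo. Its ratio of 1.30 was the highest of the 4. On summed TPM the ratio was 1.52, with all neo libraries above all KO libraries. But these values rest largely on Olfr55 and Olfr239, which share sequence. Such separation on summed TPM was not particular to this group. The receptor genes of other chromosomes ran from 1713.33 to 1846.31 TPM in KO and from 1847.91 to 2517.83 TPM in neo. On summed CPM their KO and neo libraries overlapped. Olfr466 had 2.16 CPM in WT, 2.57, 1.93 and 2.21 in KO and 2.98, 2.27 and 2.33 in neo, so that the groups overlap.

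**Figure D2:**
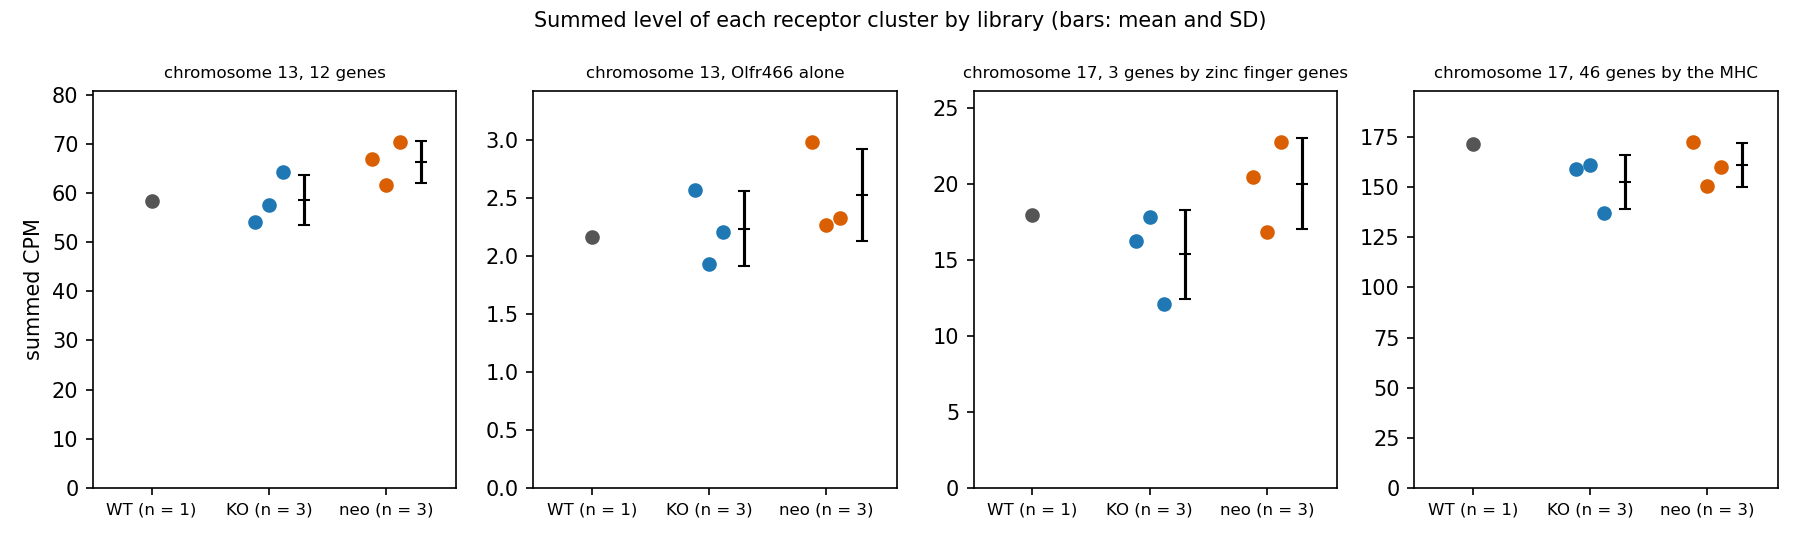
Summed CPM of the receptor genes of each cluster (y axis, from 0) in WT, KO and neo libraries (points), with the mean and SD of the KO and neo libraries as bars. KO and neo points overlap in each of the 4 panels.

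The comparison of neo with KO asks what the cassette allele changes beside the loss of Amigo1. No receptor gene of the 2 chromosomes passed across all genes (edgeR, adjusted p at most 0.05), where 3 of 17638 genes tested did (0.017%). Of the 62 genes, 56 had enough counts to be tested, and Olfr1367, Olfr98, Olfr108, Olfr113, Olfr118 and Olfr761 did not. At an unadjusted p under 0.05, 8 of the 56 were higher in neo and 3 lower, where 4.59% of all genes tested were higher and 4.72% lower. That is 14.3% and 5.36% of the 56 genes. Receptor genes of other chromosomes stood at 121 higher and 41 lower of 917, which is 13.2% and 4.47%. Libraries of the groups did not overlap for 9 higher and 4 lower of the 56 genes (16.1% and 7.14%), where 7.59% and 7.98% of all genes did so. Over the receptor genes of other chromosomes it was 18.2% and 4.47%.

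The median difference of the 56 genes was 0.12 on the log2 scale, beside -0.002 over all genes tested and 0.26 over the other receptor genes. Of the 56 genes 36 were positive (64.3%, against 49.6% of all genes and 74.2% of the other receptor genes). Against the KO mean the median lay at 0.22, 0.02 and 0.10 in neo replicates 1 to 3. The 14 mature neuron markers all had a positive difference, with a median of 0.19. Of them 3 were higher at an unadjusted p under 0.05 (21.4%, against 4.59% of all genes). By cluster the median was 0.12 in the MHC-linked cluster (41 tested, 4 higher and 2 lower by unadjusted p) and 0.09 in the chromosome 13 cluster (11 tested, 3 higher and 1 lower). The 3 genes by the zinc finger genes had a median of 0.38, with 1 higher, and Olfr466 stood at 0.19. Along the MHC-linked cluster, the 10 neighbours tested from Olfr129 to Olfr136, at its distal end, all had a positive difference, from 0.12 to 1.09, a stretch singled out after its values were seen.

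**Figure D3:**
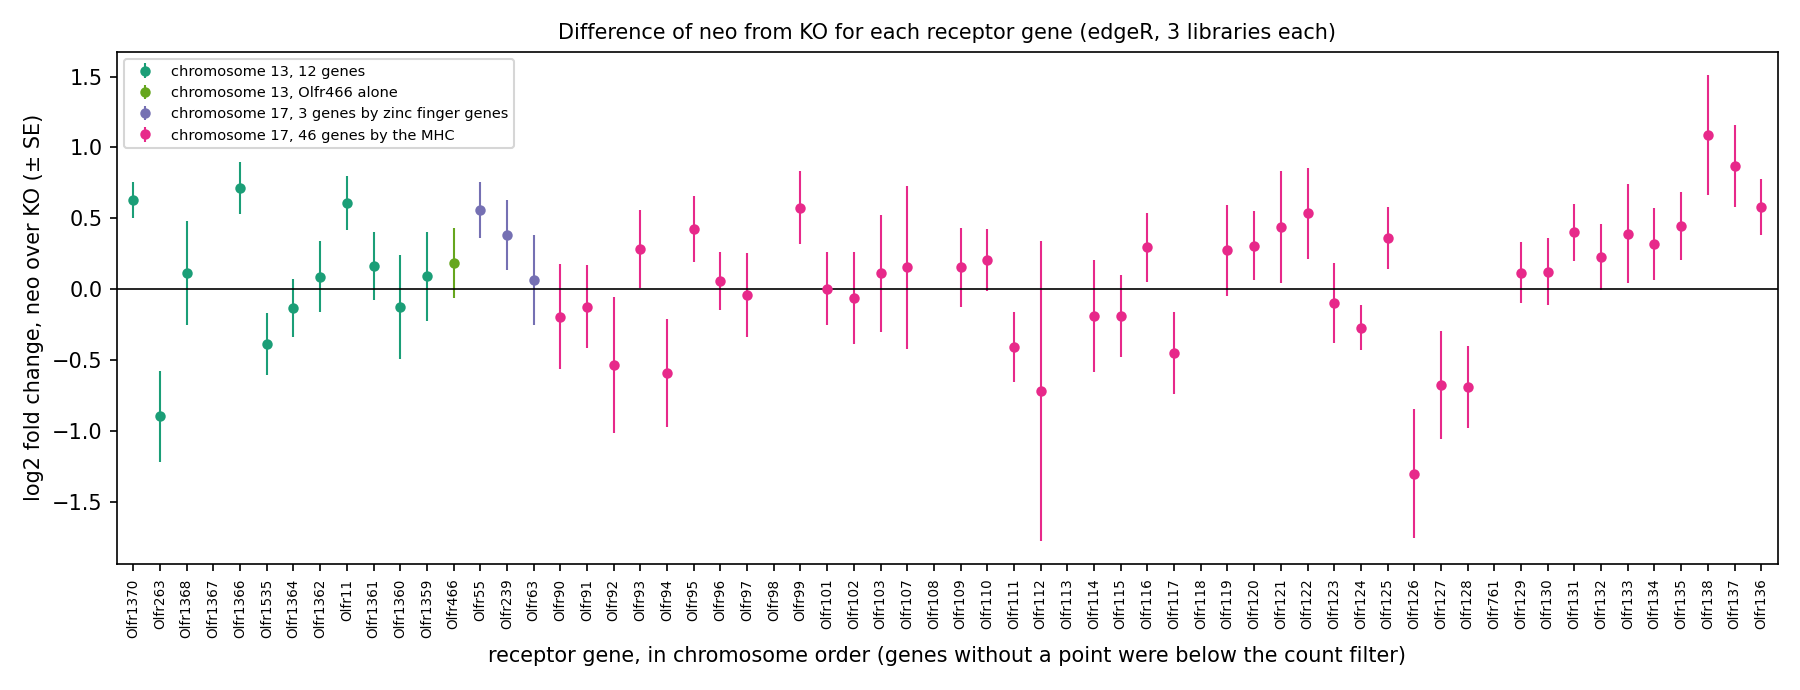
Difference of neo from KO (y axis, log2 fold change with its SE, edgeR, 3 libraries each) for each receptor gene in chromosome order (x axis). Points spread on both sides of 0, from -1.30 for Olfr126 to 1.09 for Olfr138, and no gene passed across all genes.

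Olfr1370, at the proximal end of the chromosome 13 cluster (chromosome 13, 21069334 to 21074947, minus strand), had the smallest p. It had 15.2 CPM in WT, 13.9, 12.2 and 11.99 in KO and 19.3, 18.6 and 21.02 in neo. All 3 neo libraries lay above WT and every KO library. Neo differed from KO by a log2 fold change of 0.63 (SE 0.13, adjusted p = 0.340, edgeR). DESeq2 on the same counts called it (adjusted p = 0.0263), the single receptor gene of these chromosomes among 98 called (0.539% of those given an adjusted p). The authors' deposited table, also made with DESeq2, gave Olfr1370 an adjusted p = 0.0565. Of the 58 receptor genes with an adjusted p in the authors' deposited table, none (0) fell below 0.05, beside 79 of 18429 genes (0.429%), and at an unadjusted p under 0.05 it had 6 of them higher in neo and 2 higher in KO. Over 15 alternatives the edgeR, limma or DESeq2 adjusted p ran from 0.0263 to 0.902.

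Olfr1366 and Olfr11, minus-strand genes in the middle of the same cluster, lay above KO in every neo library, by like amounts. Olfr1366 had 4.00 CPM in WT, 4.23, 3.65 and 4.42 in KO and 6.99, 6.16 and 6.98 in neo (log2 difference 0.71, SE 0.18, adjusted p = 0.432, edgeR). Olfr11 had 4.69 CPM in WT, 4.41, 4.24 and 3.98 in KO and 6.90, 5.44 and 6.92 in neo (log2 difference 0.61, SE 0.19, adjusted p = 0.471, edgeR). For both, WT lay near the KO libraries and below every neo library. Other genes within the span of this cluster went both ways. Gpx6, a secreted glutathione peroxidase gene known from the olfactory epithelium, had 619, 459 and 566 CPM in KO and 640, 911 and 619 in neo. Its log2 difference was 0.40 (adjusted p = 0.530, edgeR). Trim27 and Zkscan4 were lower in neo (log2 difference -0.27 and -0.47, adjusted p = 0.530 and 0.502, edgeR).

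At the distal end of the MHC-linked cluster, Olfr137 and Olfr136 lay above KO in every neo library and Olfr138 was variable. Olfr137 had 1.38 CPM in WT, 0.858, 0.912 and 0.663 in KO and 1.49, 1.49 and 1.46 in neo (log2 difference 0.87, SE 0.29, adjusted p = 0.494, edgeR). Olfr136 had 6.63 CPM in WT, 5.58, 5.95 and 3.98 in KO and 7.67, 8.19 and 7.32 in neo (log2 difference 0.58, SE 0.20, adjusted p = 0.498, edgeR). In both genes WT lay between the groups, which did not overlap. Olfr138 had 1.66 CPM in WT, 3.37, 1.45 and 1.49 in KO and 2.94, 6.76 and 3.72 in neo (log2 difference 1.09, SE 0.42, adjusted p = 0.505, edgeR). Here KO replicate 1 lay above the lowest neo library, and without neo replicate 2 the difference was 0.67.

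Among the genes of highest level, Olfr55, Olfr131 and Olfr124 went different ways. Olfr55 had 7.64 CPM in WT, 7.78, 6.92 and 5.47 in KO and 8.35, 9.69 and 11.7 in neo (log2 difference 0.56, SE 0.20, adjusted p = 0.498, edgeR). Olfr131 had 8.14 CPM in WT, 8.58, 5.42 and 7.07 in KO and 8.90, 10.3 and 8.58 in neo (log2 difference 0.40, adjusted p = 0.571, edgeR). Olfr124 had 27.2 CPM in WT, 21.8, 31.5 and 24.0 in KO and 22.0, 18.8 and 23.3 in neo (log2 difference -0.27, adjusted p = 0.647, edgeR). The neo libraries lay above KO for Olfr55 and, by a small margin, for Olfr131, and overlapped KO for Olfr124. Olfr99 was the remaining gene at an unadjusted p under 0.05 (log2 difference 0.58, adjusted p = 0.535, edgeR), and its groups overlapped.

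Fewer genes lay lower in neo. Olfr126, in the MHC-linked cluster (chromosome 17, 37847483 to 37852057, plus strand), had 1.79 CPM in WT, 0.919, 1.18 and 1.88 in KO and 0.682, 0.239 and 0.665 in neo. All neo libraries lay below WT and KO (log2 difference -1.30, SE 0.45, adjusted p = 0.498, edgeR). Olfr128, 2 genes further along, had 2.12 CPM in WT, 3.49, 3.59 and 2.76 in KO and 1.41, 2.03 and 2.73 in neo (log2 difference -0.69, SE 0.29, adjusted p = 0.522, edgeR). Its highest neo and lowest KO library were almost equal. Olfr263, in the chromosome 13 cluster, had 6.72 CPM in WT, 3.98, 8.79 and 8.35 in KO and 2.90, 4.66 and 3.86 in neo (log2 difference -0.90, SE 0.32, adjusted p = 0.498, edgeR). KO replicate 1 lay among the neo libraries there, and 13.3% of the 50-base windows of Olfr263 are shared with the pseudogene Olfr1369-ps1. Olfr1535 (log2 difference -0.39) and Olfr127 (log2 difference -0.67), the next by p, had adjusted p = 0.633 and 0.634 (edgeR) with overlapping groups. Of the genes at an unadjusted p under 0.05, Olfr126, Olfr128 and Olfr263 made up all that were lower, and that count was 1 when KO replicate 2 or 3, or neo replicate 2, was left out.

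**Figure D4:**
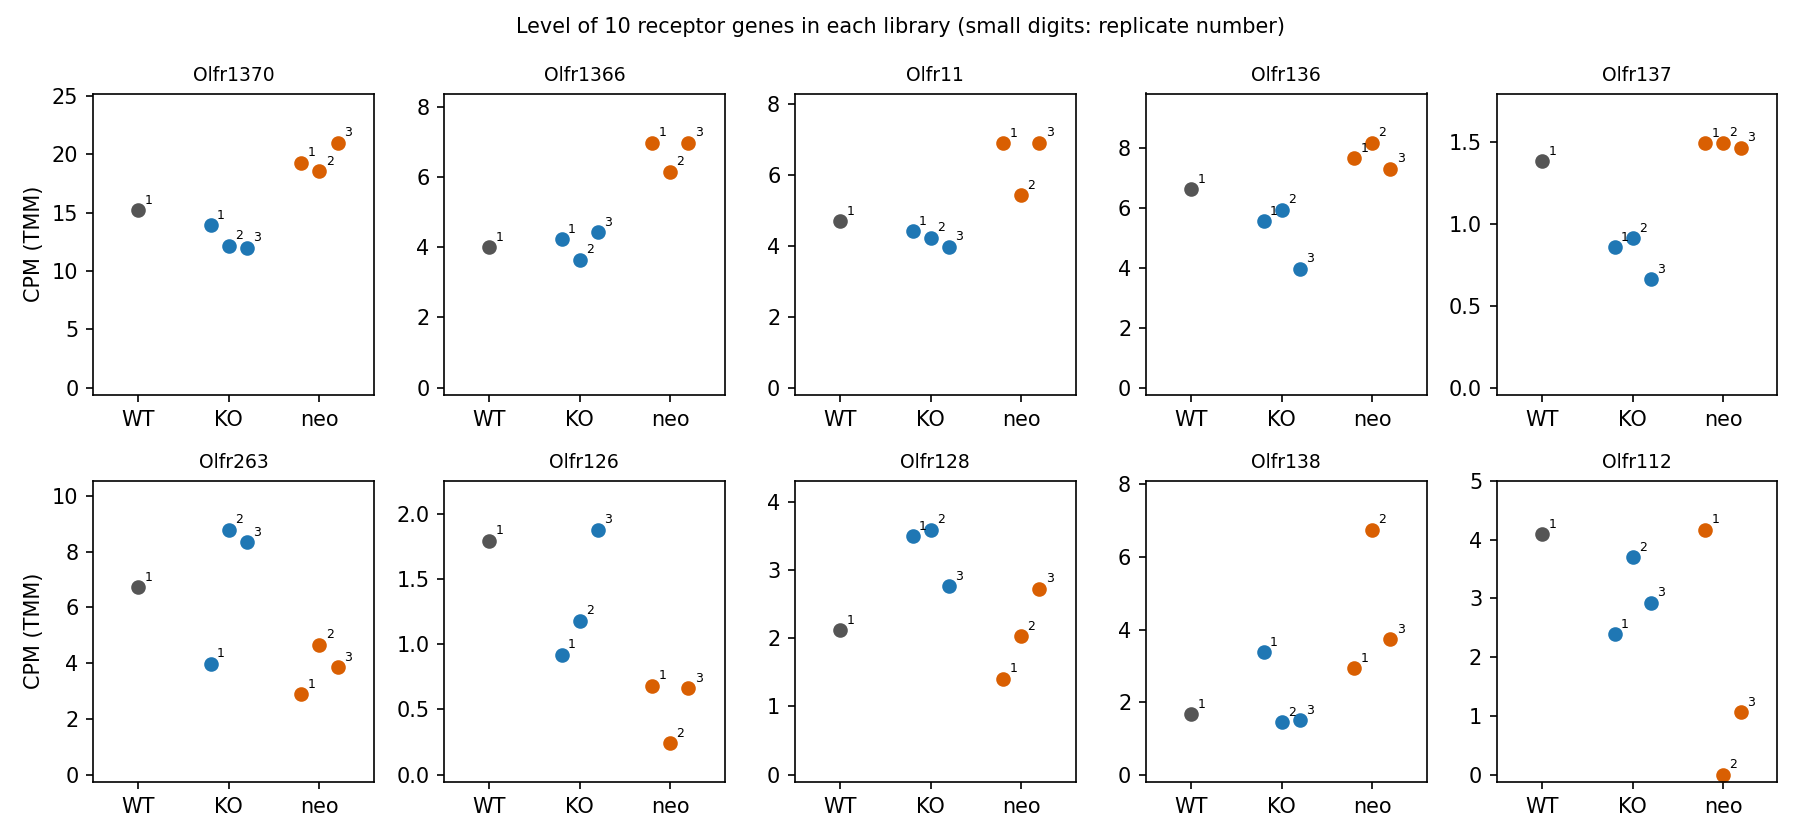
CPM (y axis, from 0) of 10 receptor genes in each WT, KO and neo library (points, with the replicate number). Neo points lie above KO for Olfr1370, Olfr1366, Olfr11, Olfr136 and Olfr137, below KO for Olfr126 and Olfr128, and mix with KO for Olfr263, Olfr138 and Olfr112.

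Neo replicate 2 stood apart within the MHC-linked cluster. It lay at least 2-fold below the median of the 7 libraries for 6 of the 41 tested genes there (14.6%), where the same library did so for 25 of 917 other receptor genes (2.73%), for 1.21% of all genes tested and for 0 of the 15 tested genes of the other 3 places. The other 6 libraries had 0 or 1 such gene in the cluster, and 0.872% to 1.64% of the other receptor genes. Neo replicate 2 thus had the largest share among the other receptor genes as well. The 6 genes, named after their values were seen, were Olfr90, Olfr92, Olfr107, Olfr112, Olfr117 and Olfr126.

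Olfr112 was the extreme case. It had 0 counts in neo replicate 2, against 4.10 CPM in WT, 2.39, 3.70 and 2.93 in KO and 4.18 and 1.06 in neo replicates 1 and 3. Set against 3 counts in that library (0.179 CPM), the KO mean was at least 16.8-fold higher and WT at least 22.8-fold higher. The deposited TPM of Olfr112 in that library was also 0. With a biological coefficient of variation of 1.07, against a median of 0.224 over the 56 genes, Olfr112 had the widest spread of them, and 4.12% of its 50-base windows are shared with other genes. Olfr107 stood at 1.38 CPM in neo replicate 2 and at 3.92 to 9.07 CPM in the other libraries. Other genes of the cluster went the other way in the same library, but only 1 tested gene, Olfr138, lay at least 2-fold above the median. The summed level of the cluster in that library, 150.4 CPM, lay within the KO range.

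Leaving out neo replicate 2 raised the differences of genes picked for low values in it, an outcome that this choice fixes in advance. The difference of neo from KO went from -0.71 to -0.15 for Olfr112 (adjusted p = 0.963, edgeR), from 0.15 to 0.60 for Olfr107 and from -1.30 to -0.96 for Olfr126. The median spread between neo libraries in the MHC-linked cluster was an SD of 0.341 on the log2 scale, above 0.277 between KO libraries. Over other receptor genes the order was the reverse, with 0.248 in neo and 0.321 in KO. The neo spread in the cluster holds the same low values of neo replicate 2, so it is not a separate observation.

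**Figure D5:**
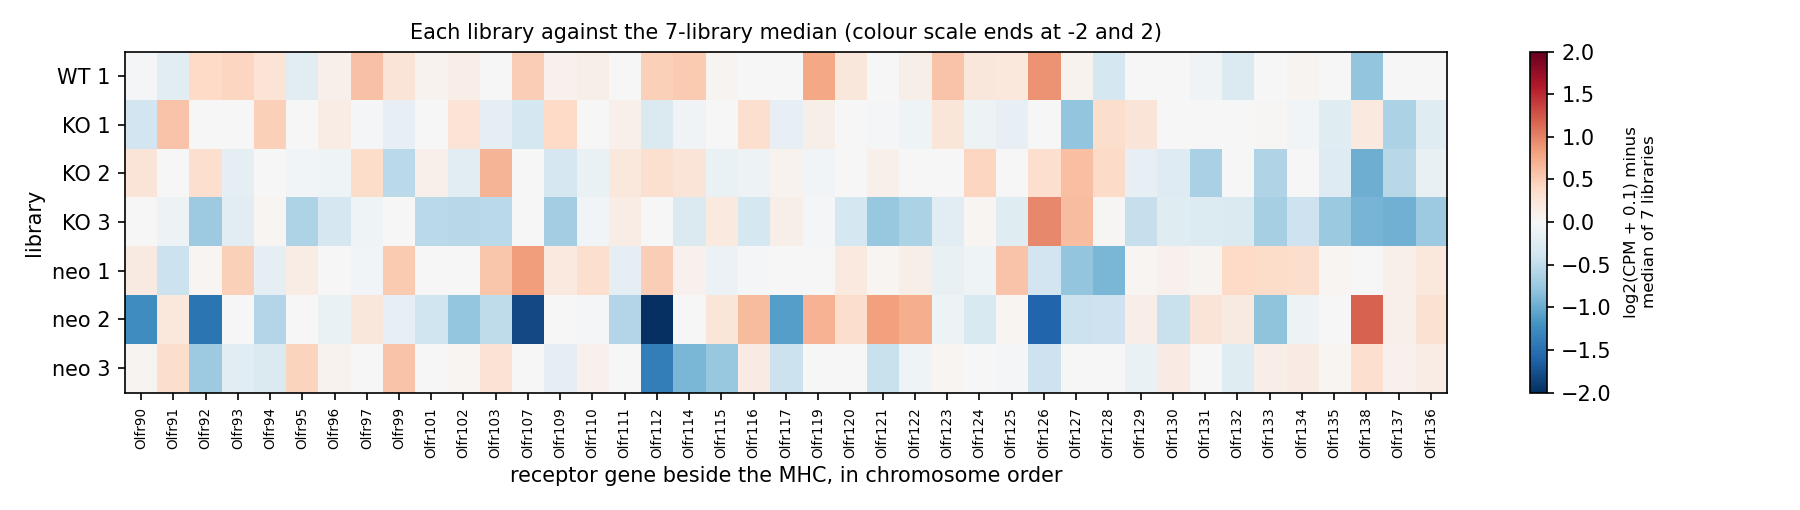
Difference of each library from the 7-library median (colour, log2(CPM + 0.1) scale, blue below and red above) for the tested receptor genes of the MHC-linked cluster in chromosome order (x axis) and the 7 libraries (y axis). The row of neo replicate 2 holds 6 genes at least 2-fold below the median, of which Olfr112 is at 0 counts.

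The comparisons with WT set each allele beside the unaltered one, and with 1 WT library they have no replicate check of that side. By Xist and Ddx3y the WT library is female-like and every KO library male-like, so sex and the KO allele cannot be told apart, and neo holds 1 library of the first kind and 2 of the second. In KO against WT, 59 of the 62 genes were tested and none passed (edgeR, 1 of 19123 genes, 0.00523%). By unadjusted p (under 0.05) the count was 0 in either direction, where 0.288% of all genes were higher and 0.439% lower. DESeq2 was not run for the comparisons with WT. The median was -0.18 on the log2 scale, beside -0.10 over the other receptor genes. Of the 59 genes 19 were positive (32.2%, against 51.7% of all genes and 37.8% of the other receptor genes). All 3 KO libraries lay above WT for 5 of the 59 genes and below it for 24, or 8.47% and 40.7%, where 19.5% and 20.9% of all genes did so. Over the other receptor genes it was 100 and 297 of 964, or 10.4% and 30.8%. Of the 24 genes 20 lie in the MHC-linked cluster, which held 44 of the 59 genes tested, so that 45.5% of its genes lay below WT. The 14 mature neuron markers all had a negative difference, with a median of -0.13 and none at an unadjusted p under 0.05.

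The 2 genes with the smallest p in each direction were Olfr1360 and Olfr128, above WT, and Olfr118 and Olfr98, below it. Olfr1360 had 0.322 CPM in WT, with 0.797, 0.643 and 1.16 in KO (log2 difference 1.41, SE 0.63). Olfr128, described above, had a log2 difference of 0.63 (SE 0.42). Olfr118 had 1.38 CPM in WT, with 0.735, 0.697 and 0.553 in KO (log2 difference -1.05, SE 0.51). The WT library held 7 counts of Olfr1360 and 30 of Olfr118. Olfr98 had 0.598 CPM in WT, with 0.245, 0.268 and 0.166 in KO (log2 difference -1.38, SE 0.71). All 4 had an adjusted p = 1 (edgeR).

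In neo against WT, none of the 59 genes tested passed (edgeR, 2 of 19123 genes, 0.0105%). At an unadjusted p under 0.05, Olfr1366 was higher and Olfr118 and Olfr126 were lower, where 1.24% of all genes were higher and 1.72% lower. The median was -0.01, with 29 of 59 positive (49.2%, against 51.0% of all genes and 59.8% of the other receptor genes). All neo libraries lay above WT for 15 genes and below it for 17 (25.4% and 28.8%), where 21.8% and 22.1% of all genes did so. Over the other receptor genes it was 35.8% and 22.0%. Olfr1366, with 4.00 CPM in WT against 6.71 ± 0.477 in neo (SD, n = 3), differed by 0.74 on the log2 scale (SE 0.27). Olfr138 differed by 1.42 (SE 0.65, unadjusted p = 0.0571). Olfr118, with 1.38 CPM in WT against 0.469, 0.239 and 0.466 in neo, differed by -1.79 (SE 0.52), and Olfr126 by -1.74 (SE 0.58). All 4 had an adjusted p = 1 (edgeR). Both comparisons use the same WT library, so a gene that is high or low in it moves in both.

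Genes that act with receptors in the same neurons, and the other genes around the clusters, were compared between neo and KO as well. Of 25 genes for receptor choice and transport, 2 were higher and 1 lower by unadjusted p (under 0.05) and none passed, with a median of 0.08. Of 19 genes of odorant transduction, 3 were higher (15.8%) and 0 lower, none passed, and the median was 0.14. Ric8b, a chaperone and exchange factor of the olfactory G protein, belongs to both lists. It had 255 ± 13.9 CPM in KO against 311 ± 8.28 in neo (SD, n = 3 each, log2 difference 0.29, adjusted p = 0.471, edgeR). Eif2ak3, the stress kinase of the feedback that stabilises receptor choice, stood at 60.1 ± 5.19 and 49.0 ± 2.65 CPM (log2 difference -0.29, adjusted p = 0.498, edgeR). Stoml3, a protein of the cilia of olfactory neurons, stood at 475 ± 29.8 and 584 ± 55.2 CPM (log2 difference 0.30, adjusted p = 0.498, edgeR). Of the 81 other genes that lie within or 100 kb beside the clusters, 31 were tested. By unadjusted p (under 0.05) 1 was higher and 2 were lower (3.23% and 6.45%), and none passed. In and beside the MHC-linked cluster only 3 of 28 had enough counts. Gabbr1 differed by 0.14, Zfp57, a zinc finger gene of imprinting control, by 0.48, and H2-M3 by 0.13 (adjusted p = 0.644, 0.675 and 0.952, edgeR).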

How the data were processed

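RNA was extracted on RNeasy columns and sequenced from KAPA libraries after poly(A) capture, per the labels' protocols. The authors deposited gene counts as whole numbers, and the submitters' processing notes name Trimmomatic 0.35, STAR 2.5.1b and the builds GRCm38 and mm10. Counting was stranded by the table's name. Multimapping reads (14.5 to 19.6% of reads) and the other summary rows that name no gene (35.6 to 41.8% of reads with them) stayed out. TPM values per gene and transcript are RSEM estimates deposited by the authors, per the submitters' processing notes. The authors' deposited comparison (DESeq2 1.18.1) holds log2 fold changes, p-values and a normalised signal per library, per the file headers. FPKM values were not used here.

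Groups come from the sample titles. Counts were tested with edgeR 4.0.16 in R 4.3.3 (TMM, filterByExpr with minimum count 10 and total 15, robust quasi-likelihood fit, two-sided, Benjamini-Hochberg at 0.05 over all genes tested). A check on simulated data covered neo against KO only. It used changes in genes above a count limit, larger than any seen here for the receptor genes, so it cannot tell whether smaller changes would be found. Neo against KO used 6 libraries, and the WT comparisons fitted all 7, taking the unreplicated WT library to vary as KO and neo do. CPM are per TMM-scaled library. Every pair of libraries differed beyond sampling noise (chi-square over its degrees of freedom at least 8.96). The labels do not say that libraries are separate animals, so p-values measure the spread between libraries, which may be technical. Low depth (14 to 3151 counts over 7 libraries for the detected genes) limits the precision.

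The 62 genes and the lists were chosen with earlier results of these data known. Genes named are those called, the 5 smallest p each way in neo against KO, the 3 highest TPM per cluster (1 in clusters under 4 genes), the 2 smallest p each way in each WT comparison, and 2 per list; others are marked. Of the 62 genes all matched GENCODE vM21 by identifier, 60 with the same coordinates. Alternatives were RLE factors, TMM without chemosensory receptor genes, no filter, a minimum of 50 counts in 3 libraries, all 7 libraries or only the groups compared, a replicate block, DESeq2 1.42.0, limma 3.58.1 on log2(TPM + 0.1) and log2(TPM + 1) for genes whose mean TPM reached 0.1, leaving out each library, and other scales for sums.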

Additional observations from a re-analysis of the deposited data

How the results depend on the processing

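In neo against KO, no gene of the 2 chromosomes was called under 14 of 15 alternatives, and DESeq2 called 1, Olfr1370. The genes called over the whole table (3 by edgeR) numbered 40 with no filter on low counts, 1 with at least 50 counts in 3 libraries, 98 by DESeq2, 1 with limma on log2(TPM + 1), and 1 to 17 when each library was left out, 17 without neo replicate 1. The receptor genes higher at an unadjusted p under 0.05 (8) numbered 5 to 9 when each library was left out, with 5 without KO replicate 3, and the lower ones (3) numbered 1 to 4, with 1 when KO replicate 2 or 3, or neo replicate 2, was left out. Both limma settings gave 1 lower. The median of the tested receptor genes stayed positive, from 0.05 to 0.21, while on TPM the median over all genes was itself 0.10 and 0.08. For 17 named genes, 248 of 251 alternative values kept their direction and side of the threshold. Much of this was set beforehand. The alternatives share libraries, edgeR called none of these genes, and many were chosen by p in this comparison. Sizes moved more, with Olfr127 from -1.01 to -0.03 and Olfr126 from -1.56 to -0.51. Olfr1360 (-0.13) ran from -0.30 to 0.14 when each library was left out, turning to 0.14 without KO replicate 3 and 0.02 without neo replicate 3, and the cause was not tested.

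In KO against WT the genes called (1) numbered 6 with only the groups compared, 2 with no filter, and 1 to 4 when each library was left out, 4 without neo replicate 1 and 2 without neo replicate 3. The receptor genes higher at an unadjusted p under 0.05 numbered 0 to 1, with 1 without KO replicate 2. In neo against WT the genes called (2) numbered 7 with no filter and 2 to 6 when each library was left out, 5 without KO replicate 1 and 6 without neo replicate 1. There the higher receptor genes (1) numbered 3 with only the groups compared, 2 with no filter and 0 to 2 when each library was left out, and the lower ones (2) numbered 2 to 5, with 5 without neo replicate 1. The cause of these moves was not tested.

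The ratio of neo to KO for the summed level of all 62 genes (1.09) was 1.22 on TPM and 0.979 as a share of receptor counts. It was 1.01 by share for the chromosome 13 cluster, 1.52 on TPM for the group by the zinc finger genes, and 1.18 on TPM and 0.947 by share for the MHC-linked cluster.

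The deviations of same-numbered KO and neo libraries had correlations of -0.10, -0.05 and 0.19 across genes, and those of different-numbered libraries ran from -0.19 to 0.24. Pairing by number was thus not seen, but 3 libraries a group cannot exclude it. With the replicate block 1 gene was called, 7 receptor genes were higher and 2 were lower by unadjusted p, and none was called.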
